A study of Bubalus bubalis with 9 samples.

Results

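Granulosa cells of early atretic follicles were compared with those of healthy follicles over the whole transcriptome, with 3 samples in each group. Every gene in the table the authors deposited for this comparison was taken once, which gave 20801 of 20801 genes, and the members were not chosen by their values. The changes were read by gene family, by expression level and by each gene's share of all counts.

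The animals were Chinese buffalo (Bubalus bubalis), the cells came from follicles of the ovary, and RNA was isolated with Trizol. The series holds 9 samples in 3 groups, healthy, early atretic and late atretic, and the labels give no treatment, age, breed or cycle stage for any of them. Whether the 3 samples of a group stem from different animals is not stated in the labels. The p-values thus cover only the spread among these samples, and that spread may be technical.

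Granulosa cells surround the oocyte, divide as the follicle grows under follicle-stimulating hormone, and secrete estradiol, inhibins and activins. In atresia a follicle stops growing, its granulosa cells cease to divide and die, and phagocytes and remodelled matrix replace the follicle wall. The granulosa layer has no blood vessels of its own, and theca, stroma and vessels lie next to it outside a basement membrane.

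The table gives 1 mean normalized read count per group and gene, beside a log2 fold change with its raw and adjusted p. Values of single samples were not used here, so neither the spread between samples nor the depth of a library could be given. An error written as ± is the standard error that a two-sided normal test would need to give the authors' p-value for their log2 fold change, an assumption the sources do not state. A gene is called higher or lower at an adjusted p below 0.05 per the authors' deposited table, and positive log2 fold changes mean higher in early atretic follicles. Of 20801 genes, 17386 had a p-value, 23 had a fold change without one and 3392 were listed at 0 in both groups. The group means summed to 14490733 in healthy and 13384619 in early atretic follicles, a log2 ratio of -0.11. No called gene changed direction when the fold changes were recentred by that amount. The p-values were not recomputed, so this covers direction only and does not show which calls would hold.

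Markers of granulosa cells were present in both groups at high levels, as the label of the samples says. The 12 granulosa markers held 6.47% of all counts in healthy and 2.10% in early atretic follicles, and 8 of them were lower and 1 higher. Over all tested genes, 12.9% were called, 8.59% as higher and 4.35% as lower. The higher marker was GATM, an enzyme of creatine synthesis, which rose by 2.13 ± 0.37 on the log2 scale, from 726 to 3171 normalized counts, per the authors' deposited table. Other cell types left a smaller trace, and most of it was larger in early atretic follicles. The summed mean of 8 stromal markers was 3187 normalized counts in healthy and 16279.9 in early atretic follicles, with 7 of them higher. That of 10 macrophage markers was 438 and 3490 with 5 higher. That of 6 neutrophil markers was 513 and 1812, with LTF and TREM1 higher among the 4 tested. LTF, which is also a protein of secretions, made up 465 and 1164 of these per the authors' deposited table. S100A8 and S100A9 had larger early atretic means without a p-value, and CSF3R and CXCR2 were not called. Endothelial markers summed to 2015 and 2984, with 2 of 8 higher, and VWF alone accounted for 1772 and 2235 of these per the authors' deposited table.

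Not every foreign marker was larger. The 5 smooth muscle markers summed to 5108 and 4891, with TAGLN and CNN1 higher. MYH11, not called, made up 4257 and 2638 of these, while ACTA2, TAGLN, CNN1 and DES had larger early atretic means. The 6 theca markers found summed to 4484 and 3194, with ALPL lower. ALPL made up 2951 and 1284 of these and LHCGR, not called, 481 and 90.6 per the authors' deposited table. STAR went from 57.9 to 717 without a p-value, and INSL3, NR2F2 and TCF21 had slightly larger early atretic means and were not called. The 7 T and B cell markers summed to 95.1 and 331, and CORO1A, the 1 called among them, made up 288 of the latter per the authors' deposited table. CD79B was listed at 0 in healthy follicles and MS4A1 at 0 in early atretic ones. Oocyte markers summed to 5.88 and 6.38 and erythroid markers to 7.64 and 4.22, with none called among 5 and 2 tested. Of 5 surface epithelium markers KRT7, KRT19 and MSLN were listed at 0 in healthy follicles, and KRT18, which granulosa cells can also express, was the 1 called, with a rise of 2.87 ± 0.45 on the log2 scale per the authors' deposited table. In bulk samples, fewer cells of a type and less RNA per cell cannot be told apart. The part of these other cell types in the results that follow was not tested.

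**Figure D1:**
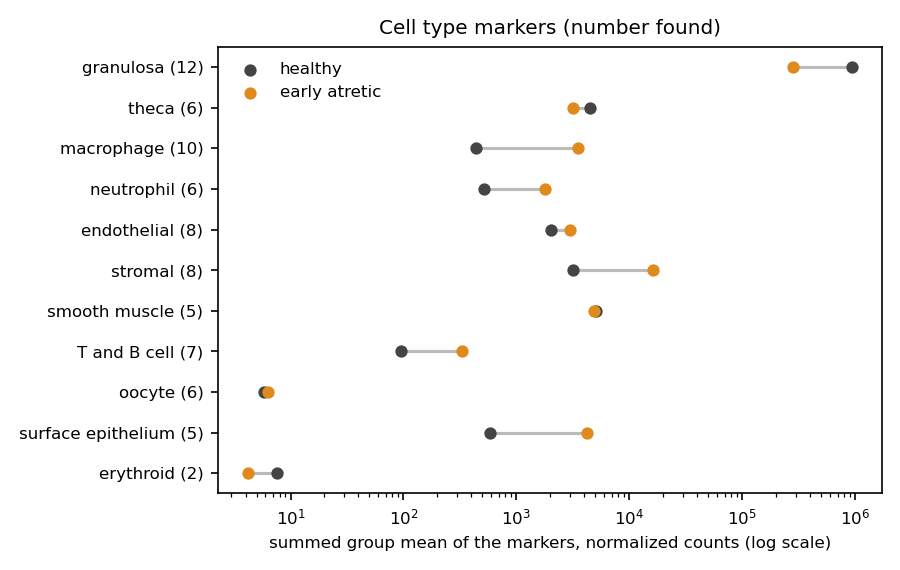
Summed group means of the cell type markers in healthy (dark) and early atretic (orange) follicles, in normalized counts on a log axis, with the number of markers found in brackets. The granulosa sum lay at 937054 and 281609, and the stromal, macrophage and surface epithelium sums were higher in early atretic follicles by the largest ratios. KRT18, which granulosa cells can also express, made up 579 and 4232 of the surface epithelium sums of 587 and 4252.

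Rises outnumbered falls. Of 17386 tested genes, 1494 were higher and 757 lower per the authors' deposited table, and at an unadjusted p below 0.05 there were 2388 and 1707. The median log2 fold change was 1.82 among higher and -0.92 among lower genes, and it differed with expression level: it was 0.99 and -0.91 between 1000 and 10000 normalized counts, and 1.10 and -1.34 at 10000 and over. A log2 change of 2 or more was reached by 664 higher genes and by 33 lower genes, and one of 3 or more by 275 and 4. A log2 change of at least 1 was met by 6.77% of tested genes as higher and 1.81% as lower, and an adjusted p below 0.01 by 8.01%. The median log2 fold change was 0.02 over all tested genes and -0.07 over the 9923 with a mean of at least 100, where the median implied error was 0.23.

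The balance of rises and falls changed with expression level. Genes were put in classes by the mean of both group means. Between 10 and 100 normalized counts, 520 of 3156 tested genes were higher and 68 lower, so that 88.4% of the calls were rises. Between 100 and 1000 there were 705 and 411 of 7114, or 63.2% rises, and between 1000 and 10000 there were 227 and 252 of 2655, or 47.4%. Among the 154 genes at 10000 and over the balance was turned, with 8 higher and 26 lower and 23.5% rises. The median implied error was 0.57, 0.24, 0.20 and 0.23 on the log2 scale in these 4 classes, and the higher genes of the class of 10 to 100 had a median log2 fold change of 2.56. Between 1 and 10, with a median implied error of 1.53, 34 of 2483 tested genes were higher and none lower, against 15 lower at an unadjusted p below 0.05 per the authors' deposited table. Under a mean of 1 none of 1824 tested genes was called, against 0 higher and 0 lower at an unadjusted p, and the median implied error was 4.04.

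**Figure D2:**
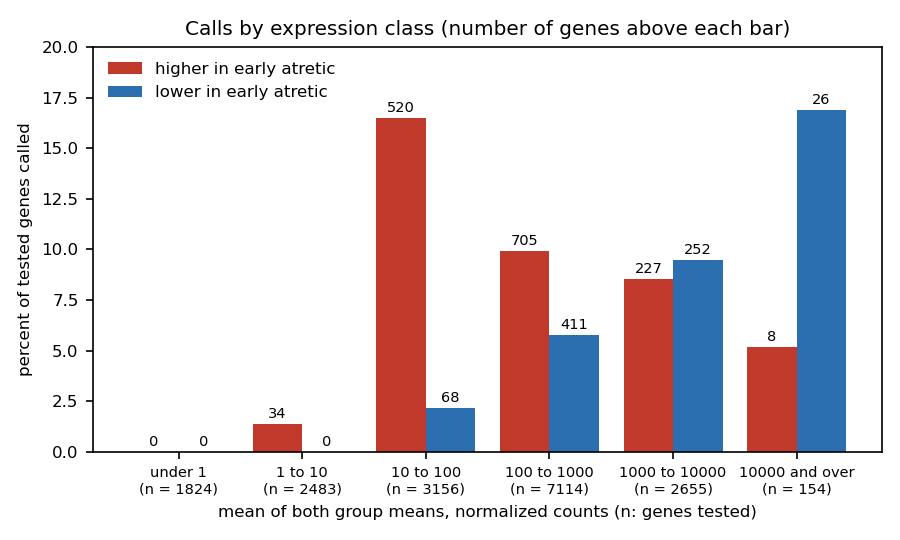
Percent of tested genes called higher (red) or lower (blue) in early atretic follicles, by the mean of both group means in normalized counts, with the number of genes above each bar. Rises were most frequent between 10 and 100 and falls most frequent at 10000 and over.

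In the class of 10 to 100, the higher genes of smallest adjusted p included receptors and transcription regulators. HIC1, a transcriptional repressor, rose by 3.58 ± 0.50 on the log2 scale, from 8.55 to 103 normalized counts, per the authors' deposited table. REL, a subunit of NF-kappa-B, rose by 3.06 ± 0.45, from 9.11 to 75.7 normalized counts, per the authors' deposited table. KCTD12, an auxiliary subunit of GABA-B receptors, rose by 3.44 ± 0.52 and TGFBR2, the type II receptor of TGF-beta, by 3.37 ± 0.48 per the authors' deposited table. All 4 had healthy means under 20. The lower genes of smallest adjusted p in that class were NPY1R, a neuropeptide Y receptor gene, CNTN4, a contactin of neural adhesion, KIAA1024L and LOC102411126. NPY1R fell by 2.68 ± 0.43, from 78.9 to 12.3 normalized counts, and CNTN4 by 2.41 ± 0.46, from 138 to 26.0 normalized counts, per the authors' deposited table.

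Between 100 and 1000, the 4 leading rises were PDLIM1, MMP23B, PTPRE and PIM1. PDLIM1, a PDZ and LIM domain protein of actin fibres, rose by 2.49 ± 0.22, from 122 to 683 normalized counts, with an adjusted p of 2.9e-25 per the authors' deposited table. PTPRE, a receptor-type tyrosine phosphatase, rose by 4.12 ± 0.44, from 35.1 to 615 normalized counts, and the kinase gene PIM1 by 1.80 ± 0.20, from 321 to 1121 normalized counts, per the authors' deposited table. Among the falls of this class, MYZAP, a protein of adherens junctions in the heart, fell by 1.41 ± 0.16, from 1126 to 424 normalized counts, per the authors' deposited table. TNFAIP8L3, which carries phosphoinositides between membranes, fell by 1.28 ± 0.17, from 905 to 372 normalized counts, per the authors' deposited table.

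Between 1000 and 10000, GSN had the smallest adjusted p of all genes named here, 3.2e-29 per the authors' deposited table. It encodes gelsolin, which severs actin filaments, and rose by 2.96 ± 0.25 on the log2 scale, from 376 to 2931 normalized counts. CCBE1, a secreted factor of lymphatic vessel growth, rose by 3.00 ± 0.28, from 566 to 4543 normalized counts, and the repressor gene BCL6 by 1.92 ± 0.19, from 614 to 2326 normalized counts, per the authors' deposited table. The falls of smallest adjusted p in this class were TENM1, ADCYAP1, ANAPC5 and RERG. TENM1, a teneurin of cell adhesion, fell by 1.35 ± 0.20, from 1536 to 603 normalized counts, and ANAPC5, a subunit of the anaphase-promoting complex, by 1.01 ± 0.17, from 4051 to 2009 normalized counts, per the authors' deposited table. RERG, a Ras-like growth inhibitor whose expression follows estrogen in other cells, fell by 1.20 ± 0.21 per the authors' deposited table.

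At 10000 and over, the falls of smallest adjusted p were MTR, TRIB2, GCLC and EMID1. MTR, methionine synthase, fell by 1.44 ± 0.22, from 21457 to 7913 normalized counts, and the pseudokinase gene TRIB2 by 1.68 ± 0.30, from 18474 to 5769 normalized counts, per the authors' deposited table. EMID1, which encodes a secreted protein with an EMI domain, fell by 1.78 ± 0.34, from 17763 to 5166 normalized counts, per the authors' deposited table. The rises of smallest adjusted p there were CTSD, PNP, DYNC1H1 and THBS1. PNP, an enzyme of purine salvage, rose by 1.21 ± 0.21, from 8987 to 20721 normalized counts, and DYNC1H1, the heavy chain of cytoplasmic dynein, by 0.64 ± 0.11, from 17288 to 27012 normalized counts, per the authors' deposited table.

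More genes crossed a given level upward than downward at the low end. In healthy follicles 12592 genes had a mean of at least 10, and in early atretic follicles 13257, with 850 crossing upward and 185 downward. Of those, 284 and 11 were called. At a mean of 10000 the count went the other way, from 163 to 148 genes, with 29 crossing upward and 44 downward, of which 15 and 24 were called. Among genes with a healthy mean under 1, 33 were called higher, whereas no gene with an early atretic mean under 1 was called lower, against 4 at an unadjusted p below 0.05 per the authors' deposited table. Those with the largest early atretic means were GIPC3, MARCH11, LOC102409467, NFAM1 and SLC6A17, at 23.2 to 28.5 normalized counts per the authors' deposited table. GIPC3, a PDZ domain protein of hair cells, had means of 0.970 and 28.5, and NFAM1, an immune receptor that signals through an ITAM motif, of 0.700 and 25.4 per the authors' deposited table.

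The counts became spread over more genes. Genes were ranked within each group, so the first genes need not be the same in both. The first 10 held 13.2% of all counts in healthy and 9.49% in early atretic follicles, and the first 100 held 29.7% and 25.1%. It took 524 and 670.0 genes to reach 50% of counts. The share of a gene is of reads, not corrected for transcript length, so it compares that gene with itself between groups and not with another. Because the summed means were smaller in early atretic follicles, a gene with the same mean in both groups gained share. In all, 15.8 percentage points of the counts moved between genes. The loss was concentrated, since 3 genes carried 24.8% and 15 genes 38.8% of it, while the first 15 gains carried 12.4% of all points gained. Genes called lower held 16.9% of counts in healthy and 8.06% in early atretic follicles, and genes called higher held 4.45% and 11.4%. Genes not called carried the rest of the movement, with changes of -6.94 and 8.83 points.

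The 3 largest losses were INHA, INHBA and SERPINE2, with a change of -3.91 points together. INHA, the alpha subunit that inhibins share, made up 2.22% of counts in healthy and 0.587% in early atretic follicles, and its fall had an adjusted p of 2.2e-04 per the authors' deposited table. INHBA, the beta A subunit of activin A and inhibin A, had shares of 1.86% and 0.479%, but its log2 fold change of -2.07 ± 1.00 did not pass per the authors' deposited table, with an adjusted p of 0.17. SERPINE2, also called protease nexin-1, an inhibitor of thrombin and plasminogen activators, had 1.69% and 0.796%. The first and the third were called and the second was not, although its change in means was as large as that of INHA.

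The other 12 large losses were each 0.745% of counts or less in healthy follicles. VCAN, a hyaluronan-binding proteoglycan of the follicle, had 0.745% in healthy and 0.288% in early atretic follicles and fell by 1.49 ± 0.31 on the log2 scale per the authors' deposited table. LAPTM4B, a lysosomal membrane protein, fell by 0.97 ± 0.21, from 0.538% to 0.298% of counts, and HIF1A from 0.329% to 0.130%. GREB1, a gene that estrogen induces in other cells, fell by 1.05 ± 0.31, from 40227 to 19457 normalized counts, and STRA6, the membrane receptor of retinol-binding protein, by 1.41 ± 0.34, from 29772 to 11212 normalized counts, per the authors' deposited table. INHBB, the beta B subunit, fell by 1.64 ± 0.49, from 35974 to 11562 normalized counts, per the authors' deposited table. OBSL1, a cytoskeletal adaptor gene, FST and GCLC were also called lower. JAK3, a kinase of cytokine receptors, had a log2 fold change of -1.83 ± 0.96 and LRP8, a reelin receptor, of -1.40 ± 0.78 per the authors' deposited table, and neither passed. LOC102392019, which the reference names as aromatase, did not pass either.

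Gains were smaller per gene. RELN, which encodes the secreted glycoprotein reelin, had the largest, with 0.203% in healthy and 0.497% in early atretic follicles, and its rise of 1.18 ± 0.43 had an adjusted p of 0.046 per the authors' deposited table. TIMP1, an inhibitor of matrix metalloproteases, rose by 2.67 ± 0.87, from 0.0285% to 0.196% of counts, and THBS1, thrombospondin 1, by 2.16 ± 0.43, from 0.0428% to 0.207%, per the authors' deposited table. FLNA, an actin cross-linker, rose by 0.67 ± 0.23 and LRP1, a scavenging endocytic receptor, by 0.65 ± 0.20 per the authors' deposited table. The remaining 7 of the 15 gains were not called: LOC112587105, the mitochondrial genes CYTB and ATP6, the elongation factor gene EEF1A1, the actin gene ACTG1, the intermediate filament gene VIM, and MFGE8, a bridging protein of phagocytosis. Their log2 fold changes lay between 0.09 ± 0.15 for EEF1A1 and 0.44 ± 0.46 for LOC112587105 per the authors' deposited table. Leaving the 10 genes of largest mean out of the sums gave 14.7 points moved in place of 15.8.

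**Figure D3:**
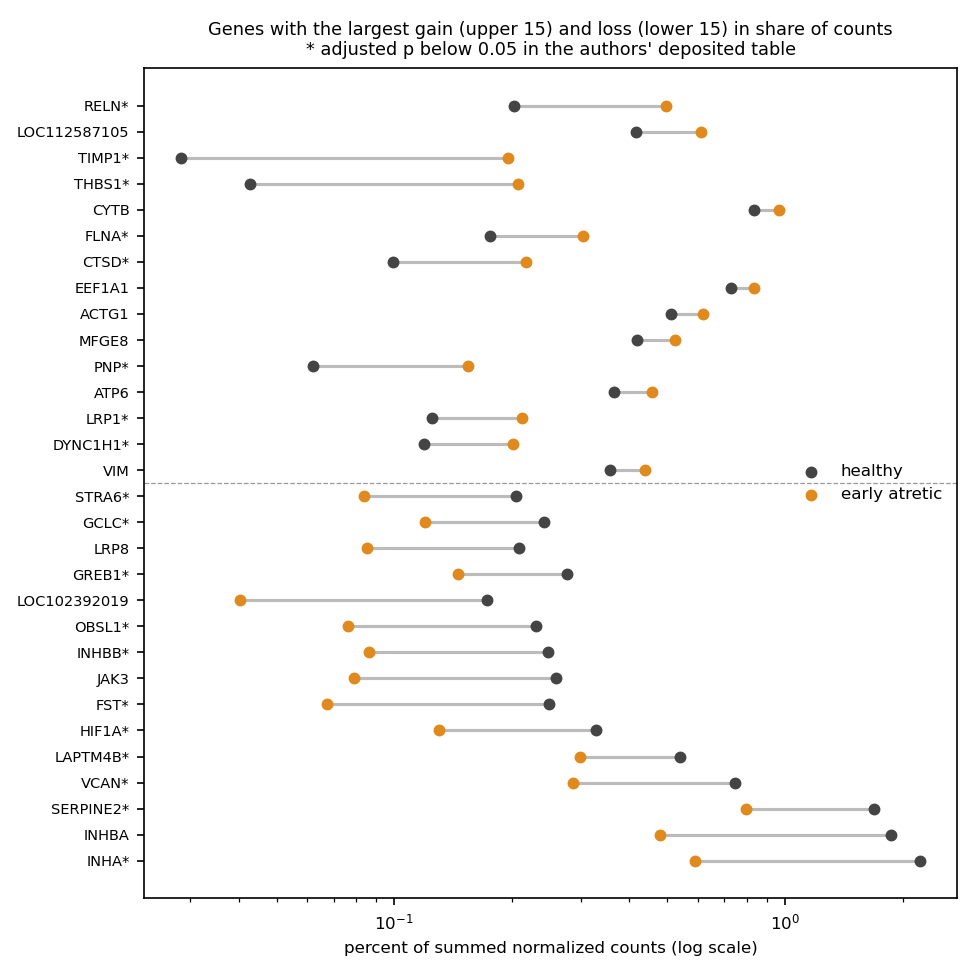
Percent of summed normalized counts in healthy (dark) and early atretic (orange) follicles for the 15 genes with the largest gain (upper part) and the 15 with the largest loss (lower part) in percentage points, on a log axis. A star marks the 8 gains and 11 losses called per the authors' deposited table, and INHA, INHBA and SERPINE2 lost the most points.

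Gene families were read from symbols, and the 128 with at least 8 tested members covered 6012 genes. Of 5643 tested family genes 10.4% were higher and 4.89% lower, close to the 8.59% and 4.35% over all tested genes, and 9 genes belonged to more than 1 family. More members were higher than lower in 81 families, more were lower in 26, and 15 had equal numbers above 0, while 6 had no call. By broad class, genes of matrix and secreted proteins had 22.7% higher, adhesion genes 17.6%, signalling genes 17.2% and cytoskeletal genes 16.2%. Cell cycle genes had 15% lower and 2.35% higher, and genes of RNA and translation had 1.47% higher and 1.68% lower. These are descriptions of groups of unequal level, with no test between them.

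**Figure D4:**
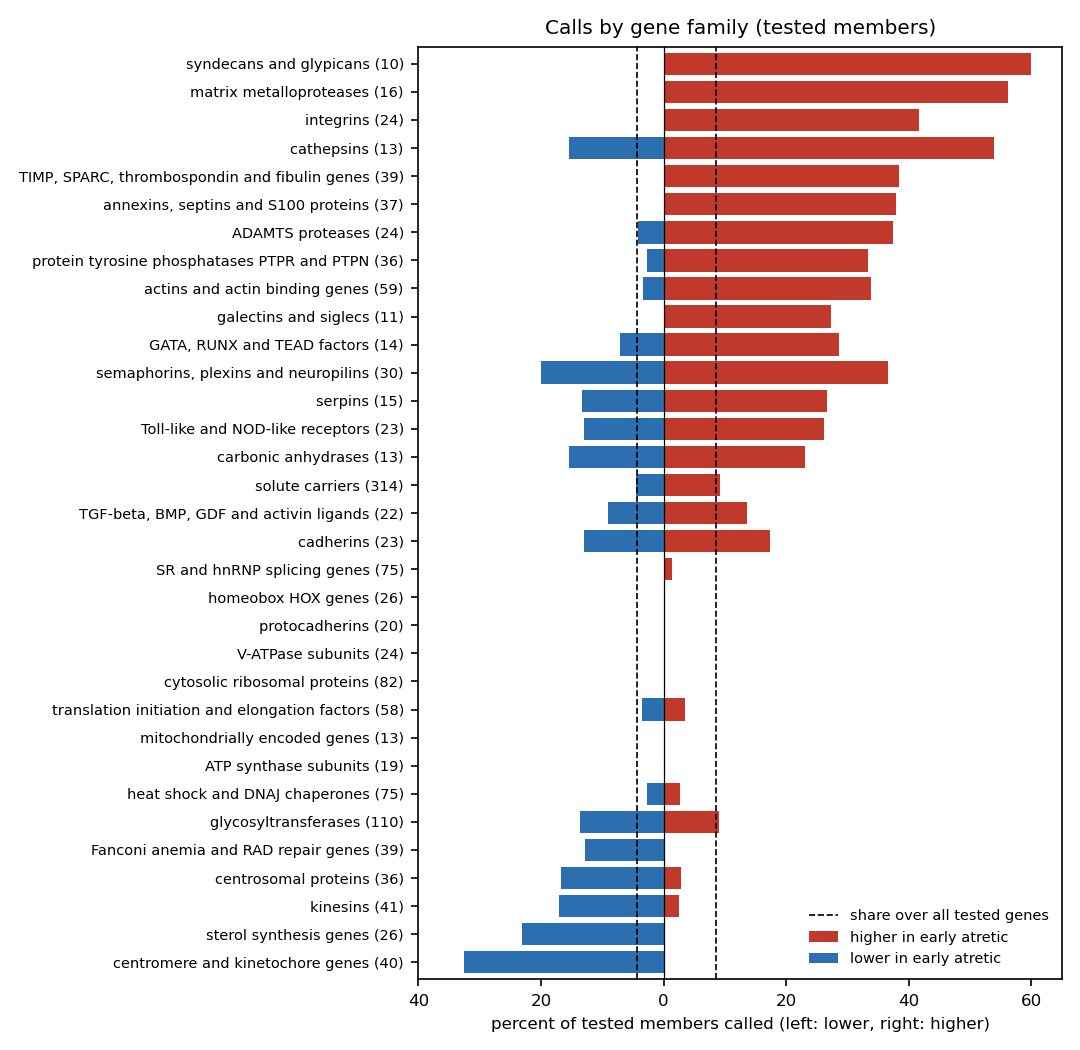
Percent of tested members called higher (right, red) or lower (left, blue) in early atretic follicles for the 33 families described, with the number tested in brackets and dashed lines at the shares over all tested genes. Surface proteoglycans and matrix metalloproteases stood farthest to the right and kinetochore genes farthest to the left.

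Proteases that cut matrix and proteins that hold cells to it were among the families with the largest shares of rises. Of 16 tested matrix metalloproteases 9 were higher and none lower. MMP19 rose by 3.51 ± 0.57 on the log2 scale, from 39.3 to 449 normalized counts, and MMP9, a gelatinase that leukocytes also make, by 3.93 ± 0.66, from 6.56 to 99.9 normalized counts, per the authors' deposited table. MMP14, the membrane-bound collagenase and the member of highest mean, rose by only 0.62 ± 0.14, from 3787 to 5805 normalized counts, per the authors' deposited table. Among 24 ADAMTS proteases 9 were higher and 1 lower. ADAMTS1, which cleaves versican, rose by 2.64 ± 0.50, from 37.5 to 234 normalized counts, and ADAMTS12 by 4.19 ± 0.74, from 8.32 to 152 normalized counts, per the authors' deposited table. The lower one was ADAMTS19, the member of highest mean, which fell by 1.58 ± 0.40, from 1385 to 463 normalized counts, per the authors' deposited table.

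Syndecans and glypicans, the heparan sulfate proteoglycans of the cell surface, had 6 of 10 members higher. SDC4 rose by 1.37 ± 0.35, from 948 to 2447 normalized counts, and GPC6 by 0.73 ± 0.20, from 846 to 1404 normalized counts, while GPC4, the member of highest mean, had a log2 fold change of -0.37 ± 0.28 that missed the threshold per the authors' deposited table. Of 24 integrins 10 were higher and none lower. ITGA5, the fibronectin receptor subunit, rose by 1.88 ± 0.42, from 251 to 925 normalized counts, ITGA7, a laminin receptor subunit, by 3.03 ± 0.57, and ITGB8, an activator of latent TGF-beta, by 1.82 ± 0.39 per the authors' deposited table. ITGB5, the member of highest mean, went from 40488 to 25823 normalized counts per the authors' deposited table and missed the threshold, and the integrins as a whole held 0.438% of counts in healthy and 0.413% in early atretic follicles. TIMP, SPARC, thrombospondin and fibulin genes had 15 of 39 higher and a share of 0.380% and 0.955%. NID2, nidogen of basement membranes, rose by 2.25 ± 0.41, from 339 to 1609 normalized counts, per the authors' deposited table. At an unadjusted p below 0.05, lower members numbered 0 of the metalloproteases, 1 of the syndecans and glypicans, 1 of the integrins and 1 of the TIMP, SPARC, thrombospondin and fibulin genes per the authors' deposited table. The stromal marker sum was also larger in early atretic follicles, at 16279.9 against 3187. COL1A1, COL1A2, COL3A1, DCN and LUM among these markers are matrix genes themselves, so the sum is not independent of matrix genes. The integrin share of counts includes ITGB5, whose mean was smaller in early atretic follicles without a call. A stromal part in these families was not tested.

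Galectins and siglecs, which bind sugars, had 3 of 11 members higher and none lower. LGALS3, galectin 3, rose by 3.10 ± 0.43, from 233 to 1995 normalized counts, LGALS1 by 2.30 ± 0.83, from 691 to 3405 normalized counts, and SIGLEC10, a leukocyte receptor, by 3.10 ± 0.83, from 8.37 to 71.7 normalized counts, per the authors' deposited table. Cathepsins, the proteases of the lysosome, went both ways, with 7 of 13 higher and 2 lower, and their share of counts was 0.177% and 0.379%, of which CTSD alone was 0.0991% and 0.217%. CTSC, which activates granule proteases of leukocytes, rose by 2.12 ± 0.49, from 120.5 to 525 normalized counts, and CTSV and CTSO fell by 0.47 ± 0.14 and 0.76 ± 0.28 per the authors' deposited table. Both falls no longer passed at an adjusted p of 0.01. Serpins had 4 of 15 higher and 2 lower, and their share went from 2.00% to 1.09% of counts, of which SERPINE2 was 1.69% and 0.796%. SERPINI1, neuroserpin, fell by 1.14 ± 0.39, from 141 to 64.0 normalized counts, per the authors' deposited table.

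Of 22 tested ligands of the TGF-beta superfamily, INHA and INHBB were lower and BMP6, BMP4 and TGFB1 higher. The share of the family went from 4.36% to 1.19% of counts. INHA, from 321220 to 78598 normalized counts, and INHBA, from 270038 to 64139, made up most of it in both groups, and INHBA was not called per the authors' deposited table. BMP6, a ligand that oocytes and granulosa cells make, rose by 3.47 ± 0.62, from 29.0 to 322 normalized counts, BMP4 by 1.66 ± 0.35, from 112 to 356 normalized counts, and TGFB1 by 2.51 ± 0.62, from 137 to 781 normalized counts, per the authors' deposited table. All 3 rising ligands stayed under 1000 normalized counts.

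Actin and its binding proteins were among the larger families to rise, with 20 of 59 higher and 2 lower and 1.91% and 2.48% of counts. TAGLN2, a transgelin, rose by 2.57 ± 0.46, from 374 to 2217 normalized counts, and TAGLN by 2.02 ± 0.28, from 182 to 739.8 normalized counts, per the authors' deposited table. The tropomyosin gene TPM2 fell by 1.26 ± 0.24, from 5788 to 2412 normalized counts, and ACTR10, of the dynactin complex, by 0.45 ± 0.15 per the authors' deposited table. Annexins, septins and S100 proteins, small families of membrane, filament and calcium-binding proteins, had 14 of 37 higher and none lower. S100A4 rose by 3.09 ± 0.51, from 85.2 to 725 normalized counts, S100A10 by 2.23 ± 0.36, its partner ANXA2 by 1.37 ± 0.28, from 3243 to 8399 normalized counts, and S100A11 by 1.60 ± 0.27 per the authors' deposited table. S100A8 and S100A9, markers of neutrophils, had healthy and early atretic means of 12.6 and 201 and of 19.7 and 349, with no p-value per the authors' deposited table.

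Families of cell surface signalling rose in part and fell in part. Semaphorins, plexins and neuropilins, the guidance cues of axons and vessels with their receptors, had 11 of 30 higher and 6 lower. PLXND1, a plexin of vessels, rose by 3.28 ± 0.38, from 64.7 to 630.3 normalized counts, SEMA5A by 2.71 ± 0.32, from 49.0 to 322 normalized counts, and SEMA4F by 1.47 ± 0.24 per the authors' deposited table. The class 6 members SEMA6A and SEMA6D fell by 1.69 ± 0.40 and 1.44 ± 0.32, to 563 and 829 normalized counts, and the secreted SEMA3C by 0.93 ± 0.27 per the authors' deposited table. Tyrosine phosphatases of the PTPR and PTPN groups had 12 of 36 higher and 1 lower, PTPN4. PTPN5 rose by 3.89 ± 0.46, from 26.1 to 386 normalized counts, and PTPRJ by 1.45 ± 0.32, from 128 to 349 normalized counts, whereas PTPRF, the member of highest mean, had -0.74 ± 0.32 and did not pass per the authors' deposited table.

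Cadherins, which join cells through calcium-dependent contacts, had 4 of 23 higher and 3 lower. CDH1, E-cadherin, rose by 2.95 ± 0.51, from 50.9 to 394 normalized counts, and CDH2, N-cadherin, which granulosa cells use, by 0.65 ± 0.16, from 4829 to 7595 normalized counts, per the authors' deposited table. CDH8 fell by 1.74 ± 0.46, CDH16 by 1.46 ± 0.38 and CDH6 by 0.97 ± 0.30 per the authors' deposited table. Toll-like and NOD-like receptors, sensors of microbial products, had 6 of 23 higher and 3 lower. TLR4, TLR7 and TLR2, each of which macrophages express, rose from means of 11.6, 12.2 and 11.8 to 104, 96.6 and 82.1 normalized counts per the authors' deposited table. TLR6, TLR1 and TLR10, the partners of TLR2, fell from 705, 485 and 179.9 to 274, 234 and 60.9 per the authors' deposited table. The macrophage marker sum was 438 in healthy and 3490 in early atretic follicles, with 5 of the 10 markers called higher. A macrophage part in the changes of these receptors was not tested.

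Among transcription factors of the GATA, RUNX and TEAD groups, 4 of 14 were higher and 1 lower. RUNX2 rose by 2.82 ± 0.48, from 589 to 4159 normalized counts, RUNX1 by 0.80 ± 0.19, from 826 to 1439.8 normalized counts, and TEAD4, a DNA-binding partner of YAP, by 3.43 ± 0.52, from 9.88 to 107 normalized counts, per the authors' deposited table. GATA6, which acts with GATA4 in granulosa cells, fell by 0.99 ± 0.32, from 4917 to 2483 normalized counts, with an adjusted p of 0.021 per the authors' deposited table. Carbonic anhydrases had 3 of 13 higher and 2 lower. CA13 and CA8 rose by 3.23 ± 0.65 and 1.63 ± 0.39, and the mitochondrial CA5B and CA9, a target of hypoxia signalling, fell by 2.09 ± 0.40 and 1.34 ± 0.42 per the authors' deposited table.

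The genes of the centromere and kinetochore had the largest share of lower members of the families counted. Of 40 tested genes of these structures, where chromosomes bind spindle fibres, 13 were lower and none higher, and 39 of the 40 fold changes were negative with a median of -0.71. KNL1, a kinetochore scaffold, fell by 1.01 ± 0.27 from a healthy mean of 907, and PMF1, of the MIS12 complex, by 0.61 ± 0.18, from 315 to 206 normalized counts, per the authors' deposited table. BUB3, the member of highest mean, had -0.26 ± 0.16 and did not pass per the authors' deposited table. At an adjusted p threshold of 0.01, 10% of the family passed, against 32.5% at 0.05 and 2.0% lower over all tested genes at 0.01. Among 36 centrosomal proteins 6 were lower and 1 higher. CEP85 fell by 1.32 ± 0.23, from 995 to 399 normalized counts, CEP72 by 1.23 ± 0.26, from 619.6 to 264 normalized counts, and CEP57 by 1.05 ± 0.22, while CEP170B rose by 1.19 ± 0.29 per the authors' deposited table.

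Kinesins, the motors of microtubules, had 7 of 41 lower and 1 higher. KIFC2, the lower member of smallest adjusted p, fell by 0.67 on the log2 scale, from 1362 to 855 normalized counts, per the authors' deposited table. KIF18A and KIF20B, both motors of dividing cells, fell by 1.09 ± 0.29 and 1.09 ± 0.35, and KIFC3 rose by 2.65 ± 0.56 per the authors' deposited table. Of 39 Fanconi anemia and RAD repair genes 5 were lower and none higher. BRIP1, a helicase of crosslink repair, fell by 1.34 ± 0.36, from 252 to 99.4 normalized counts, RAD50 by 0.68 ± 0.19, and RAD21, a cohesin subunit, by 0.43 ± 0.13, from 3238 to 2402 normalized counts, per the authors' deposited table. At an unadjusted p below 0.05, higher members numbered 0 of the kinetochore and 1 of the repair genes. The MCM, origin and GINS genes of replication had 29 of 30 negative fold changes but 1 call, with a median of -0.41.

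Sterol synthesis genes had 6 of 26 lower and none higher, and 23 of 26 fold changes were negative. SQLE, squalene epoxidase, fell by 1.24 ± 0.37, from 1316 to 557 normalized counts, DHCR7, which makes cholesterol in the last step, by 1.13 ± 0.34, from 3931 to 1795 normalized counts, and MSMO1, a methyl sterol oxidase, by 1.06 ± 0.33 per the authors' deposited table. At an unadjusted p below 0.05, 1 sterol gene was higher. None of the 6 passed at an adjusted p of 0.01. Glycosyltransferases, which build the sugar chains of proteins and lipids, had 15 of 110 lower and 10 higher, and their share went from 0.724% to 0.486% of counts. ST3GAL4, a sialyltransferase and the member of highest mean, fell by 1.59 ± 0.48, from 18835 to 6258 normalized counts, and CHSY1, a chondroitin synthase, by 0.91 ± 0.18, from 3609 to 1926 normalized counts, per the authors' deposited table. GALNT16, which starts O-linked chains, rose by 2.68 ± 0.35, from 146 to 930.5 normalized counts, and MGAT5, which branches N-linked chains, by 1.08 ± 0.21, from 276 to 581 normalized counts, per the authors' deposited table.

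Several families had few calls or none. None of 82 cytosolic ribosomal proteins, 13 mitochondrially encoded genes, 19 ATP synthase subunits, 24 V-ATPase subunits, 26 HOX genes or 20 protocadherins was called per the authors' deposited table. At an unadjusted p below 0.05 these 6 families had 4, 1, 0, 2, 3 and 1 higher and 1, 0, 0, 1, 0 and 0 lower members. The ribosomal proteins held 5.28% of counts in healthy and 6.08% in early atretic follicles, with a median log2 fold change of 0.09. The mitochondrially encoded genes held 6.46% and 6.75%, with a median of 0.04. COX1, the mitochondrial gene with the most reads, had 3.33% and 3.23% with a log2 fold change of -0.16 ± 0.42 per the authors' deposited table. Of 75 SR and hnRNP splicing genes only SNRNP200, a helicase of the spliceosome, was called, with a rise of 0.54 ± 0.15 per the authors' deposited table. Heat shock and DNAJ chaperones had 2 of 75 higher and 2 lower, with DNAJC6 and HSPB7 up by 2.24 ± 0.59 and 3.93 ± 0.88 and CCT6B and DNAJC30 down by 1.16 ± 0.35 and 0.86 ± 0.28 on the log2 scale per the authors' deposited table.

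Single members were called in other families with few calls. Translation initiation and elongation factors had 2 of 58 higher and 2 lower. EEF1A2, the elongation factor form of muscle and nerve, rose by 3.27 ± 0.57, from 7.13 to 69.4 normalized counts, while its ubiquitous relative EEF1A1 had 0.09 ± 0.15 per the authors' deposited table. EIF4EBP1, a repressor of cap-dependent translation, fell by 1.27 ± 0.34, from 6849 to 2832 normalized counts, and EIF4A2 by 0.58 ± 0.15, from 7949 to 5315 normalized counts, per the authors' deposited table. Solute carriers, the largest family with 314 tested, had 9.24% higher and 4.46% lower, near the shares over all genes. SLC43A3, a transporter of purine bases, rose by 1.82 ± 0.29 and the phosphate transporter gene SLC20A2 by 2.29 ± 0.39, and SLC16A1, a lactate carrier, fell by 0.75 ± 0.17 per the authors' deposited table.

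Genes listed only under a LOC number, among them the aromatase gene LOC102392019, took a smaller part. Of 15084 tested genes with a symbol 14% were called, and of 2145 tested under a LOC number only 5.50%. The LOC genes had fewer reads, with a median mean of 5.51 normalized counts against 222 for symbols, and at a mean of at least 10 the shares were 11.8% and 17.3%. Of the 23 genes with a fold change and no p-value, 17 had a positive one. They included STAR, the cholesterol carrier of steroid-making mitochondria, with means of 57.9 and 717, and CARTPT, a neuropeptide precursor of bovine granulosa cells, which was listed at 0 in healthy follicles and at 85.6 in early atretic ones per the authors' deposited table. CARTPT was named after its values were seen.

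Called genes were also read by their neighbours on the chromosome. On the reference assembly, 16066 tested genes could be placed, which gave 16040 adjacent pairs, and in 186 pairs both were higher, in 86 both lower and in 94 they were opposite. Of the neighbours of lower genes 12% were lower, against 4.47% of all neighbour places, and of the neighbours of higher genes 13% were higher, against 8.93%. Without pairs that overlap or have related names, the values were 11.4% against 4.70% and 12.5% against 9.24%. Adjacent genes are not independent, and reads that run from a gene into the next one or into an antisense partner cannot be told apart here, because the authors' counting is not given. The order of genes was read from a reference assembly that may differ from that of the authors.

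There were 32 runs of 3 or more adjacent called genes in 1 direction, 18 of higher and 14 of lower genes. The longest held 7 lower genes, WDR19, KLHL5, TMEM156, FAM114A1, TLR6, TLR1 and TLR10, with log2 fold changes from -1.73 ± 0.44 for TMEM156 to -0.56 ± 0.16 for WDR19 per the authors' deposited table. The falls of the 3 Toll-like receptor genes thus lay side by side with those of 4 genes of other families, while RFC1 and KLF3 on both sides were not called. A second run held LRCH4, FBXO24, PCOLCE, MOSPD3 and TFR2, of which PCOLCE enhances procollagen processing and TFR2 is a transferrin receptor. PCOLCE fell by 1.31 ± 0.34, from 2206 to 889 normalized counts, and TFR2 by 1.45 ± 0.27, from 1348 to 494 normalized counts, per the authors' deposited table. INHA lay between OBSL1 and SLC4A3, an anion exchanger gene, which fell by 1.71 ± 0.56 and 1.48 ± 0.28 per the authors' deposited table. FST, which encodes follistatin, lay between NDUFS4, a subunit of complex I, and MOCS2, of molybdopterin synthesis, which fell by 0.89 ± 0.26 and 0.61 ± 0.18 per the authors' deposited table. INHA and FST, both among the 15 largest losses of share, were each flanked by genes lower in the same samples. OBSL1, next to INHA, is itself among those 15. INHA and FST were picked from the runs, and the neighbours of the other large losses are not given here.

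Runs of higher genes included S100A13, S100A14, S100A16 and S100A2, paralogs whose reads may be shared. S100A3, the next gene, was not called, and S100A4 after it was higher. They rose by 1.10 ± 0.30, 2.05 ± 0.53, 2.10 ± 0.37 and 2.09 ± 0.53 per the authors' deposited table. HCRTR1, TINAGL1, SERINC2 and FABP3, of different families, rose by 4.75 ± 1.39, 4.33 ± 0.62, 5.25 ± 0.99 and 1.19 ± 0.40 per the authors' deposited table. HCRTR1, an orexin receptor gene, had a mean of only 19.1 in early atretic follicles, and SERINC2 of 91.1, per the authors' deposited table.

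**Figure D5:**
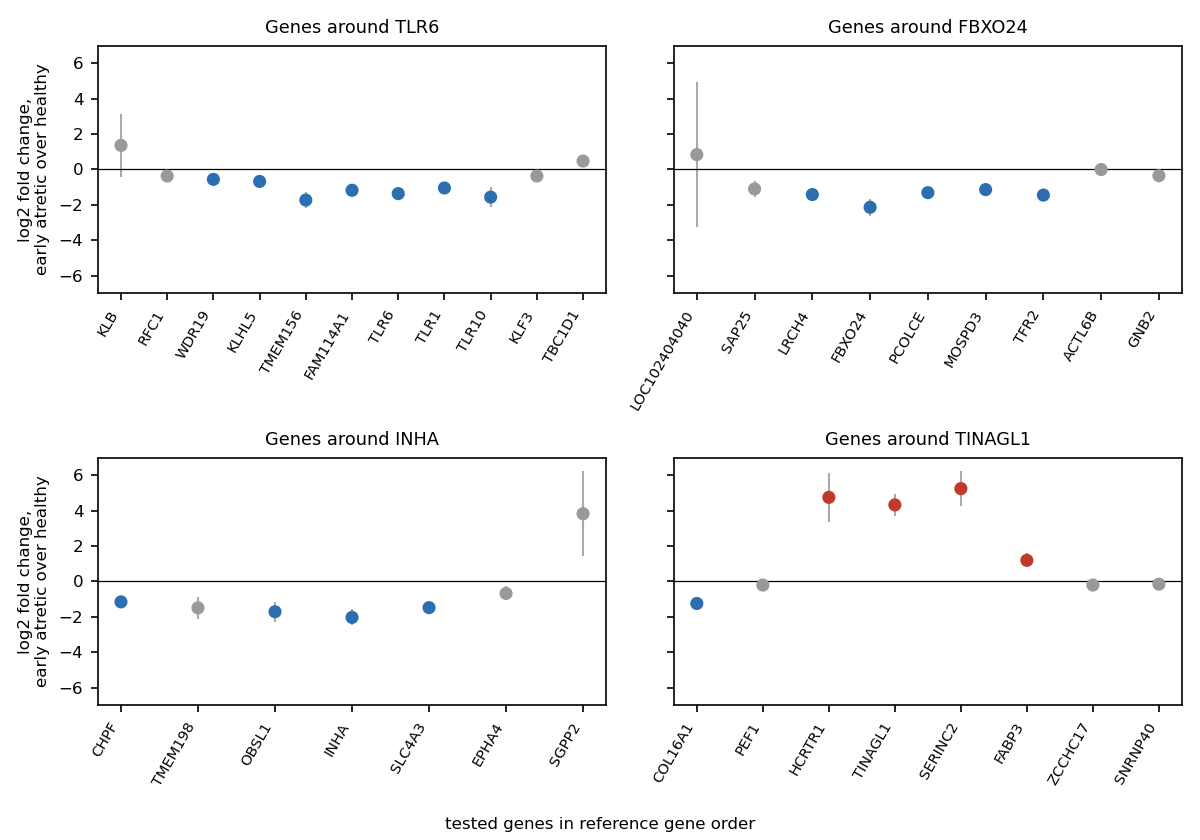
Log2 fold changes (early atretic over healthy) of the tested genes in 4 runs and of 2 genes on each side, in the order of the reference assembly, with bars of 1 implied standard error. Blue and red points were called lower and higher and grey points were not called per the authors' deposited table.

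Late atretic follicles, set against the same healthy samples, had 761 calls, or 4.38% of tested genes, per the authors' deposited table, so both comparisons share their controls. All 15 genes with the largest loss of share had late atretic shares between those of healthy and early atretic follicles, and 11 of the 15 with the largest gain did. Both sets were chosen for their difference in early atretic follicles. The 15 losing genes held 9.48% of counts in healthy, 3.36% in early atretic and 5.56% in late atretic follicles. INHA had 1.27% in late atretic follicles, SERPINE2 1.41% and VCAN 0.468%. For none of these 30 genes was the difference between late and early atretic follicles called per the authors' deposited table, where 19 genes or 0.108% of those tested passed.

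Some changes were as large in late as in early atretic follicles and others were not. COL3A1 had a log2 fold change of 3.66 ± 0.36 in early and 4.34 in late against healthy follicles, TINAGL1 of 4.33 ± 0.62 and 4.71, and PLXND1 of 3.28 ± 0.38 and 3.94 per the authors' deposited tables, and all were called in both. NPY1R had -2.68 ± 0.43 in early and -0.01 in late against healthy follicles, and CNTN4 -2.41 ± 0.46 and -0.67, per the authors' deposited tables. The difference between late and early atretic follicles was called for none of these 5 genes, with the authors' adjusted p between 0.527 and 0.997. They were picked as examples, and a fall could last and a rise fade. CEP85 had -1.32 in early and -1.26 in late against healthy follicles, called in both, per the authors' deposited tables. KRT18 had 2.87 and 1.21, the latter not called, per the authors' deposited tables. Late and early atretic follicles did not differ by a call in either gene. Of the 19 genes called between late and early atretic follicles, 8 were also called in early against healthy, and all 8 had moved back toward the healthy level. The comparisons of early with healthy and of late with early follicles share the early atretic samples.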

How the data were processed

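Granulosa cell RNA of 3 healthy and 3 early atretic follicle samples was sequenced, with 3 late atretic samples in the same series, and libraries followed Illumina protocols, per the labels' protocols. Per the file headers, the deposited table gives a read count column per group. Its values are not whole, so they were taken as a signal, the authors' group means of normalized counts, scaled within each table. Per the file headers, the deposited log2 fold change and the authors' deposited p-value and adjusted p come with them, and the adjusted p matches a Benjamini-Hochberg adjustment over the 17386 genes tested, with relative differences of at most 7.3e-05. The counter, the test and the genome build were not given in the sources used here. The samples are from buffalo, yet the submitters' processing notes list the mouse builds mm8 and mm9, beside Bowtie 0.12.2, without saying what each was used for.

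Of 21253 rows, 452 exact repeats were dropped. Names came from the gene identifiers, since some symbols had turned into dates, and RefSeq held 15413 of 16251 symbols and 3651 of 4550 LOC numbers among its buffalo genes (assembly NDDB_SH_1, serving for names and gene order only). A gene's share is its group mean as a percent of the summed group means. Values per sample were not used here (0 per-sample columns were left out), so the depth is unknown and no new test was fitted. The implied standard error is the size of the log2 fold change over the z value that a two-sided normal test assigns to its p-value. The counting of calls was tested on simulated data with fixed seeds. Families were defined by symbol patterns, and those with 8 or more tested members were counted; patterns that caught unrelated symbols were corrected after values were seen, and the reading of neighbouring genes was added then. The members, families and marker lists were chosen with earlier results of these data known. Markers CYP17A1, CD163, HBA and HBB were not analysed here.

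Named genes were the 15 largest gains and losses of share, the 4 higher and 4 lower genes of smallest adjusted p in each expression class from 10 upward, the 3 higher and 3 lower members of smallest adjusted p and the member of highest mean in each described family, up to 5 called genes with a mean under 1 in the other group, and the markers. Some genes that this rule names are not reported here. The families described were those with the largest shares of higher or lower members, those with no call, and those with 1 percent or more of counts. Alternatives were an adjusted p of 0.01, a minimum mean of 10, a log2 fold change of at least 1, 2 recentrings, other sums and a pseudocount of 1. Python 3.11.15, numpy 2.4.6, pandas 2.3.3, scipy 1.17.1 and matplotlib 3.10.9 were used.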

Additional observations from a re-analysis of the deposited data

Results flagged for a closer look

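Among the genes named here, LTF and RUNX2 stood out because late and early atretic follicles, each set against healthy follicles, differed in the authors' own test of late against early. LTF, which encodes the iron-binding protein lactoferrin of neutrophil granules and secretions, had a log2 fold change of 1.33 ± 0.36 for early and of -0.24 for late atretic over healthy follicles per the authors' deposited tables. Its late over early log2 fold change was -1.55, with an adjusted p of 2.3e-04, in the authors' deposited table. RUNX2, a transcription factor of bone and of the ovulatory follicle, had 2.82 ± 0.48 for early and 1.16 for late atretic over healthy follicles, and -1.66 in late over early, with an adjusted p of 0.035, in the authors' deposited tables. All of these comparisons draw on the same 9 samples.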

How the results depend on the processing

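At an adjusted p threshold of 0.01, 1392 genes were called in place of 2251, with 348 lower in place of 757, and with a log2 fold change of at least 1 there were 1492, with 315 lower. At a threshold of 0.01 the percent of calls that were rises was 92.9 between 10 and 100 normalized counts, 76.8 between 100 and 1000, and 54.5 between 1000 and 10000, in place of 88.4, 63.2 and 47.4. With classes set by the higher group, it was 66.7 between 100 and 1000, 50.3 between 1000 and 10000 and 35.1 at 10000 and over, the last in place of 23.5. Families with no call numbered 18 in place of 6 at 0.01. Of genes with a symbol 8.70% were called at 0.01 and 17.3% at a mean of at least 10, in place of 14%, and of LOC genes 3.08% and 11.8%, in place of 5.50%. The median log2 fold change was -0.0321 at a minimum mean of 10, in place of -0.0654 at 100. Neighbouring pairs numbered 101 both higher and 26 both lower at 0.01, in place of 186 and 86. Of 322 named genes, 44 no longer passed at 0.01 and 278 kept their side. None of the 221 called among them changed direction when recentred on equal summed counts or on the median, and of the 101 not called 6 and 3 did. No paired analysis was possible because the tables hold group means only, and for the same reason leaving out single replicates was not run. The share of promoters with a motif was not run, since no promoter sequences were used here. Reads shared between paralogs may have been split or lost in the authors' counting.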
